A study of Mus musculus with 30 samples.

Results

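Endoderm cells made in culture from the induced pluripotent stem (iPS) cell clone ST5 were compared with endoderm cells made the same way from embryonic stem (ES) cells, on 6 of the 30 expression arrays of the series. They were the 3 arrays of ST5 cells at day 5 of differentiation and the 3 arrays of ES cells at day 5 whose sample titles do not mark the RNA as amplified. Both day 5 groups had been sorted as cells positive for c-Kit with dim Sox2. Undifferentiated cells of the same lines, sorted as Sox2 bright at day 0, gave 3 arrays of ST5 and 3 arrays of ES cells, and a second iPS clone, ST8, gave 3 arrays at each day. All of these cells had a C57BL/6x129SvJae background and carried no other labelled allele or agent. ST5 is 1 clone and the ES samples are not divided into lines by the labels, so a difference between them is a difference between these cells and not between iPS and ES cells as classes. The labels call the 3 samples of a group biological replicates but do not say which cultures they came from. A p-value here sets a difference against the spread between samples within groups, pooled over the 6 groups of the 18 arrays without amplification.

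Definitive endoderm is the embryonic germ layer that forms the lining of the gut and the cells of the liver, pancreas, thyroid and lung. It arises from cells that shut down the pluripotency network around Pou5f1 and Nanog and, under Nodal signalling, switch on transcription factors of the Sox17, Foxa and Gata families. iPS cells are made from somatic cells by forced expression of pluripotency factors, and some mouse iPS clones carry a silenced Dlk1-Dio3 region, an imprinted domain whose noncoding RNAs and microRNAs come from the maternal chromosome.

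Of the 35556 probe sets in the deposited table, 21789 name 1 gene and were tested, for 19938 genes. Values are log2 expression levels, so that a difference of 1 is 2-fold. The medians of the 6 arrays lay between 5.54 and 5.57. Arrays give no read depth, and the number of arrays limits the precision. The levels come from sorted populations, in which fewer cells of a type and less RNA per cell cannot be told apart.

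The 3 ES arrays did not form an even group. Across the tested probe sets, ES replicate 1 had Pearson correlations of 0.993 to 0.994 with the ST5 arrays, whereas ES replicates 2 and 3 had correlations of 0.979 to 0.981 with them. ES replicate 1 correlated at 0.989 with the other two ES arrays, which correlated at 0.997 with each other, and the ST5 arrays correlated at 0.997 to 0.998 among themselves. These correlations run across genes of the same arrays and describe likeness only. The median standard deviation over probe sets was 0.079 in ST5 cells and 0.116 in ES cells. The amplified ES day 5 samples showed a split under the same replicate numbers: Pou5f1 read 7.72 on amplified replicate 1, against 8.92 and 8.82 on replicates 2 and 3, and Hhex read 10.67, against 9.46 and 9.45. ES replicate 1 is therefore given apart from the other two wherever a value rests on it.

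Between ST5 and ES cells at day 5, 5136 probe sets (23.6% of those tested) passed an adjusted p of 0.05 in limma's moderated test. Of these, 2591 were higher in ST5 cells (11.9%) and 2545 were lower (11.7%), a split of 50.4% higher that became 38.1% higher, with 5657 passing, after a further quantile normalization. At least a 2-fold difference was found for 435 of them (2.0%), with 242 higher (1.11%) and 193 lower (0.886%). Leaving out ES replicate 1 raised the number passing to 7138, and leaving out ES replicate 2 or ES replicate 3 lowered it to 2218 or 2082. Without ST5 replicate 1, 2 or 3 it was 2961, 3337 or 3432. With any 1 of the 6 arrays left out, 1752 probe sets passed in each of the 6 fits, 980 higher and 772 lower in ST5 cells, and 256 of these differed at least 2-fold. The groups did not overlap for 8676 probe sets (39.8%), and 4858 (22.3%) both passed and did not overlap. A probe set or gene that passed is called higher or lower below, and per gene the share called was 11.7% higher and 11.9% lower. Counts over gene lists are followed by the counts with single arrays left out where these moved by more than 1.5 times.

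The size of the difference depended on the ES array. For the 435 probe sets, the ST5 mean lay a median of 0.72 log2 units from ES replicate 1, against 1.69 from ES replicate 2 and 1.58 from ES replicate 3. ES replicate 1 was the nearest ES array for 407 of them. The ST5 mean stood at least 2-fold from ES replicate 1 for 105 of the 435, and at least 2-fold from each of the 3 ES arrays for 94, of which 39 were higher and 55 lower in ST5 cells. The p of a probe set and its choice at 2-fold come from these same arrays, so these counts are a description.

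**Figure D1:**
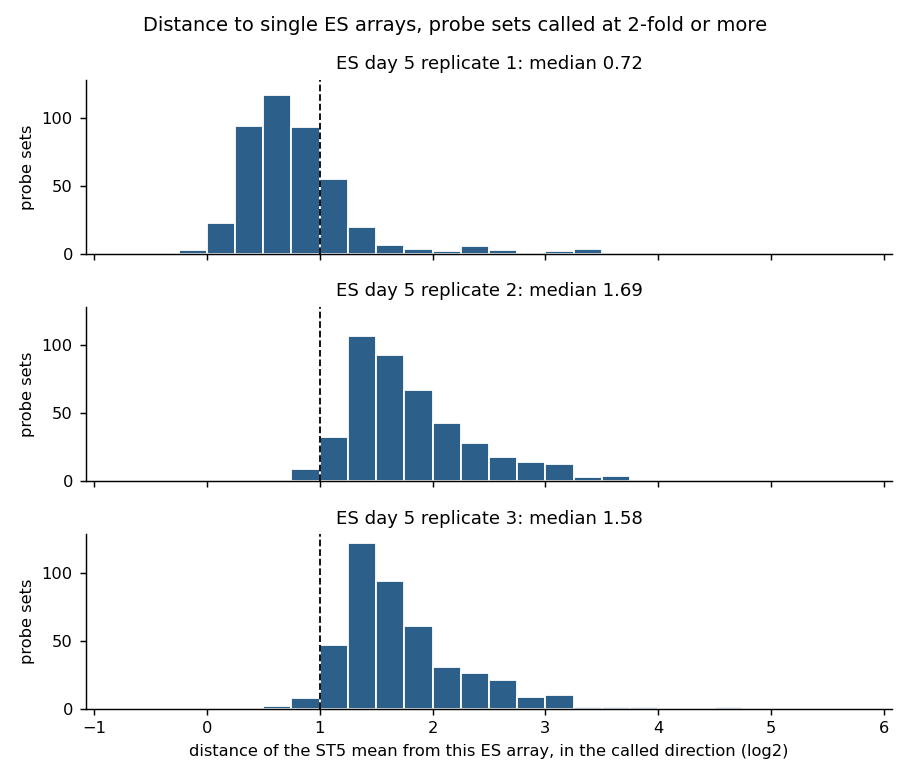
Distance between the ST5 day 5 mean and each ES day 5 array (log2, in the called direction) for the 435 probe sets called at 2-fold or more, 1 histogram per ES array, with a dashed line at 2-fold. The medians are 0.72 for ES replicate 1, 1.69 for ES replicate 2 and 1.58 for ES replicate 3, so most of the histogram of ES replicate 1 lies left of the line.

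The labelled cell type was checked against marker genes. The 10 markers of definitive endoderm had a mean level of 9.58 to 9.65 on the ST5 arrays, against 9.61 on ES replicate 1 and 8.32 on each of ES replicates 2 and 3, and 3 of the 10 were called higher. The 10 include Kit, on which the cells had been sorted, so this check is in part fixed by the sort. The 7 markers of pluripotent cells averaged 5.55 to 5.75 on the ST5 arrays and 5.92 to 6.33 on the ES arrays, with 1 called higher and 3 lower. Fibroblast markers, which feeder cells would carry, averaged 4.91 to 5.04 in ST5 cells and 4.98 to 5.43 in ES cells, with 3 of 8 called lower. Of 6 visceral endoderm markers, 4 were called higher, and the 6 had a mean of 6.26 to 6.5 in ST5 cells and 5.19 to 5.52 in ES cells. Afp and Amn were not called. Afp, a marker of that tissue in the yolk sac, read 4.19, 3.87 and 4.08 on the ST5 arrays, against 3.74, 4.0 and 4.07 on the ES arrays. It read much the same in undifferentiated cells (3.66, 4.16 and 3.94 in ST5, 3.91, 4.0 and 3.94 in ES), so no signal of Afp above that level was seen in either group. Of the markers of parietal endoderm 1 of 4 was called higher, of mesoderm 1 of 5 higher and 1 lower, and of the neural ectoderm 1 of 4 lower. None of the markers of endothelium, blood, surface ectoderm or trophoblast was called. The part of other cells in the results that follow was not tested.

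Of 13 core pluripotency genes, 6 were called lower and none higher, with a median difference of -0.26, against -0.04 over all genes. Nanog, a homeobox factor that holds cells in the undifferentiated state, read 5.96, 6.58 and 5.78 in ST5 cells, against 8.18, 9.24 and 9.24 in ES cells, with no overlap and a difference of -2.78 ± 0.56 (SE, limma adjusted p = 0.00348). Tdgf1, the Nodal co-receptor Cripto, read 6.92, 7.31 and 6.94 in ST5 cells, against 9.38, 11.21 and 10.93 in ES cells, a difference of -3.45 ± 0.65 (limma adjusted p = 0.00234). Utf1, which binds chromatin in undifferentiated cells, fell by 2.56 (limma adjusted p = 0.00417). On all 3 of these genes the ST5 arrays lay below every ES array, and ES replicate 1 was the lowest of the ES arrays for Nanog and Tdgf1. Pou5f1, which encodes Oct4, read 8.36, 8.40 and 8.29 in ST5 cells, against 8.41, 9.64 and 9.61 in ES cells. Its difference of -0.87 did not pass (limma adjusted p = 0.292). Among the fits with 1 array left out, it passed only without ST8 replicate 2 in the shared estimate of spread (limma adjusted p = 0.00628). On ES replicate 1 Pou5f1 was thus close to its level on the ST5 arrays. Sox2, one of the sort markers and so no finding, read 7.80, 7.78 and 7.97 in ST5 cells and 7.67, 8.46 and 8.22 in ES cells. With ES replicate 1, 2 or 3 left out, the count of core genes called was 1 higher and 5 lower, 3 lower, or 3 lower, and with 1 ST5 array left out it was 3 to 4 lower.

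The naive pluripotency genes moved in both directions, with 4 of 21 called higher and 5 lower (3 higher and 2 lower without ES replicate 3, and 3 higher and 3 lower without ST5 replicate 1). Klf4, a zinc finger factor that is also one of the reprogramming factors, read 7.40, 7.46 and 7.28 in ST5 cells, against 5.99, 5.34 and 5.78 in ES cells, a difference of 1.67 ± 0.15 (limma adjusted p = 1.62e-05). Tfcp2l1, a partner factor of the naive state, and Nr0b1, an orphan nuclear receptor, rose by 1.87 and 2.47 on the log2 scale. All 3 genes were higher on every ST5 array than on ES replicate 1 as well. Dppa5a, an RNA-binding protein of early embryos and ES cells, read 4.85, 4.67 and 5.40 in ST5 cells and 5.77, 6.55 and 6.17 in ES cells, and fell by 1.19 (limma adjusted p = 0.00138). Myc, another reprogramming factor, read 8.16, 8.36 and 8.17 in ST5 cells and 7.55, 8.36 and 8.42 in ES cells and was not called (limma adjusted p = 0.737). Among 14 genes of the epiblast, the tissue from which the germ layers arise, 2 were called higher and 5 lower, and with any array except ES replicate 1 left out the count was 1 higher and 3 to 4 lower. Slc7a3, a cationic amino acid transporter, read 6.43, 6.64 and 6.54 in ST5 cells, against 9.07, 9.62 and 9.72 in ES cells, a difference of -2.93 ± 0.32 (limma adjusted p = 7.54e-05). The zinc finger gene Zic5 fell by 2.15 on the log2 scale on its brighter probe set (limma adjusted p = 0.00657) and by 0.69 on its second probe set (limma adjusted p = 0.023).

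Genes of the primitive streak, the structure through which cells leave the epiblast, gave 0 calls of 16 at day 5 in limma, with a median difference of -0.07. At an unadjusted p of 0.05, 2 of the 16 were higher and 7 lower in ST5 cells, where 37.3% of all genes passed in either direction, and without ES replicate 1 the calls were 2 higher and 2 lower. At day 0 the median of the list was 0.42, and for 6 of the 16 genes the difference was lower at day 5 than at day 0 by the test of the change, against 2.24% of all genes.

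**Figure D2:**
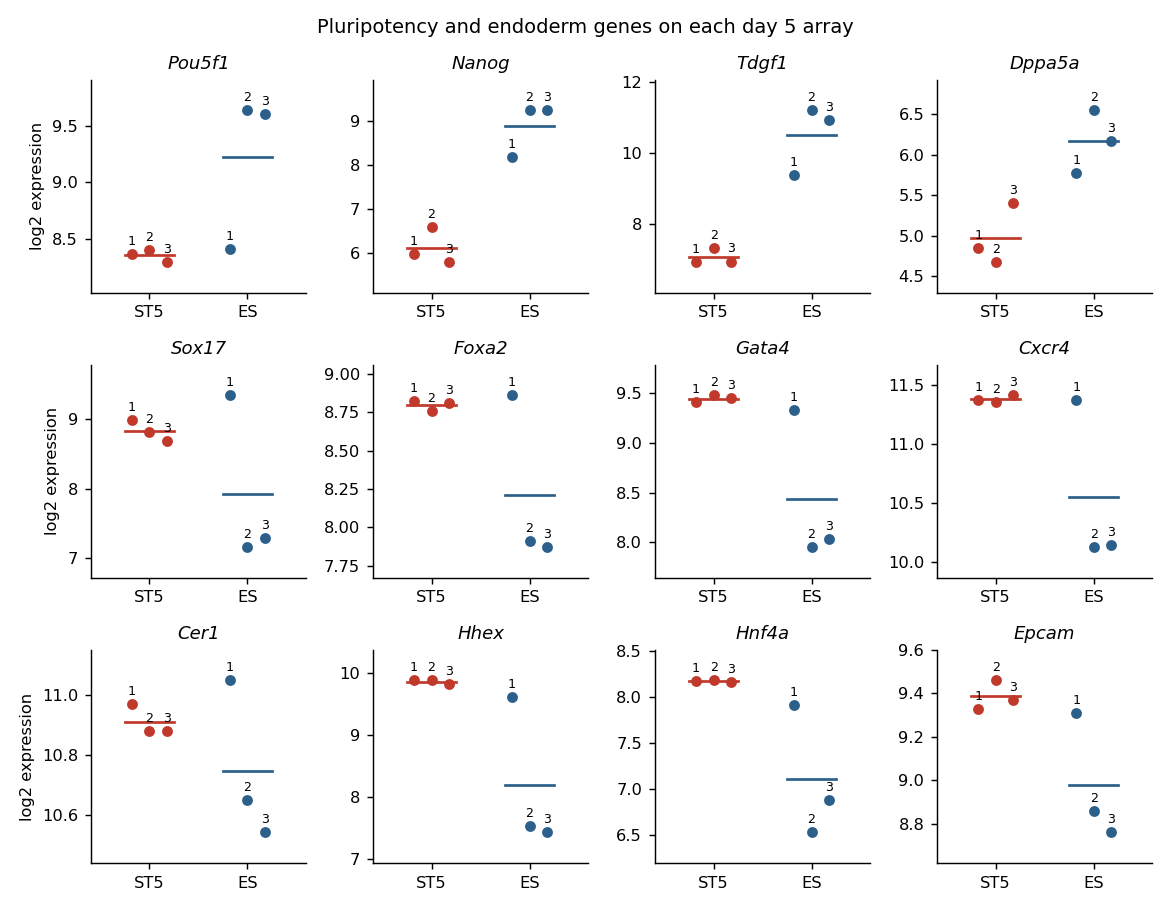
Log2 expression of 12 genes on each day 5 array, ST5 left and ES right, with the replicate number above each point and a line at the group mean. ES replicate 1 lies beside the ST5 points for Pou5f1, Sox17, Foxa2, Gata4 and Cxcr4, and all 3 ES arrays lie above the ST5 arrays for Nanog, Tdgf1 and Dppa5a.

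In the endoderm factors Sox17, Gata6, Foxa2, Gata4 and Hhex, ES replicate 1 read nearer to the ST5 arrays than the other two ES arrays did. Of 17 definitive endoderm genes, 7 were called higher in ST5 cells and 1 lower, with a median difference of 0.91. Without ES replicate 1 the count was 13 higher and 1 lower, and without ES replicate 2 or 3 it was 0 higher and 1 lower. With 1 ST5 array left out it was 2 to 3 higher and 1 lower. At day 0 the median difference of this list was 0.4. The change between the days passed for 1 of the 17 genes upward and 1 downward. Foxa2 and Cer1 were already called higher in ST5 cells at day 0, by 1.26 and 0.9 (limma adjusted p = 0.0287 and 0.0249). Sox17, an HMG-box factor required for gut endoderm, read 8.99, 8.82 and 8.69 in ST5 cells, against 9.35, 7.15 and 7.28 in ES cells. Gata6, a zinc finger factor of all endoderm lineages, read 9.90, 10.06 and 9.84 in ST5 cells, against 9.89, 8.40 and 8.20 in ES cells. Cxcr4, the receptor of the chemokine Cxcl12 and a common surface marker of endoderm, read 11.37, 11.35 and 11.41 in ST5 cells, against 11.37, 10.12 and 10.14 in ES cells. None of these 3 was called with all arrays (limma adjusted p = 0.197, 0.0846 and 0.0765), and each was called when ES replicate 1 was left out (limma adjusted p = 0.00649, 0.0075 and 0.00486). Without ST8 replicate 2, Gata6 and Cxcr4 were called as well (limma adjusted p = 0.0252 and 0.0204).

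Foxa2, a forkhead pioneer factor, read 8.82, 8.76 and 8.81 in ST5 cells, against 8.86, 7.91 and 7.87 in ES cells. It did not pass with all arrays (limma adjusted p = 0.163). Among the fits with 1 array left out, it passed only without ES replicate 1 (limma adjusted p = 0.0229). Gata4 read 9.41, 9.48 and 9.45 in ST5 cells, against 9.33, 7.95 and 8.03 in ES cells (limma adjusted p = 0.0658), and was called without ES replicate 1 (0.00596), ST8 replicate 1 (0.0463) or ST8 replicate 2 (0.0101). Cer1, a secreted Nodal and Wnt antagonist of the anterior endoderm, read 10.97, 10.88 and 10.88 in ST5 cells and 11.05, 10.65 and 10.54 in ES cells, and the groups overlapped. Kit, the other sort marker, read 9.65, 9.55 and 9.60 in ST5 cells and 9.77, 7.97 and 8.16 in ES cells. The ES arrays of replicates 2 and 3 were thus lower than the ST5 arrays in a gene on which the cells had been gated.

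Hhex, a homeobox factor of the anterior endoderm and liver bud, read 9.88, 9.88 and 9.82 in ST5 cells, against 9.61, 7.53 and 7.43 in ES cells, a difference of 1.67 ± 0.49 (limma adjusted p = 0.0232). Foxa1, Foxa3 and the nuclear receptor gene Hnf4a rose by 0.91, 1.44 and 1.06 on the log2 scale (limma adjusted p = 0.0131, 0.0312 and 0.0232). The call of each of these 4 genes was lost without ES replicate 2 or ES replicate 3, at adjusted p between 0.0674 and 0.15. It was also lost without ST5 replicate 1 for Foxa1 (0.0593) and without any one ST5 array for the other 3 (0.0546 to 0.0807). Epcam, the cell adhesion protein of embryonic epithelia, read 9.33, 9.46 and 9.37 in ST5 cells and 9.31, 8.86 and 8.76 in ES cells, a difference of 0.41 (limma adjusted p = 0.0126) that was lost without ES replicate 2 (0.0667) or 3 (0.0769). Shh, the Hedgehog ligand that the gut epithelium makes, was the gene of the list that fell, with 5.68, 5.86 and 5.62 in ST5 cells, against 6.76, 8.10 and 7.62 in ES cells, a difference of -1.77 ± 0.35 (limma adjusted p = 0.00319).

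Of 24 regional factors of the foregut and its organs, 7 were called higher and 4 lower. The count was 4 higher and 2 lower without ES replicate 2, 4 higher and 1 lower without ES replicate 3, and 5 higher and 1 to 2 lower without 1 ST5 array. Pax9, a factor of the pharyngeal pouches, read 7.10, 6.95 and 7.24 in ST5 cells, against 5.86, 5.56 and 5.68 in ES cells, with no overlap and a difference of 1.40 ± 0.22 (limma adjusted p = 0.000858). Irx5, an Iroquois homeobox factor, rose by 1.33 (limma adjusted p = 0.00487). Rfx6, a factor of the pancreas and gut endocrine lineage, read 9.74, 9.88 and 9.86 in ST5 cells, against 9.36, 7.05 and 7.26 in ES cells, and its rise of 1.93 (limma adjusted p = 0.0131) was lost without ES replicate 2 (0.0742) or 3 (0.0734). Sox9, a factor of several organ buds, fell by 0.56 (limma adjusted p = 0.0044). Pax9 was thus well above every ES array in ST5 cells, whereas Rfx6 was close to ES replicate 1.

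Of 14 genes for secreted products of early endoderm, 8 were called higher and 1 lower, with a median difference of 0.79. Ttr, which encodes the thyroid hormone carrier transthyretin and is an early marker of visceral endoderm and liver, read 8.96, 9.05 and 9.13 in ST5 cells, against 6.76, 5.92 and 6.09 in ES cells. Its difference of 2.79 ± 0.29 (limma adjusted p = 5.29e-05) reflects a level above that of every ES array, ES replicate 1 included. Pyy, a gut hormone gene switched on in nascent endoderm, read 10.54, 10.70 and 10.71 in ST5 cells, against 10.41, 7.48 and 7.99 in ES cells. Its call (limma adjusted p = 0.0199) was lost when any ST5 array (0.0503 to 0.0538) or ES replicate 2 (0.108) or 3 (0.0994) was left out. Sfrp5, a secreted Wnt antagonist of foregut endoderm, rose by 1.76 (limma adjusted p = 0.014), and its call was lost without ES replicate 2 (0.0781) or 3 (0.0757). Trh, the precursor of thyrotropin-releasing hormone, was the one gene of this list that fell, at 11.87, 11.81 and 11.80 in ST5 cells and 12.21, 12.16 and 12.01 in ES cells. Without ES replicate 2 or 3, the count of the list was 2 higher and 1 lower or 3 higher and 1 lower, and without 1 ST5 array it was 5 to 6 higher and 1 lower.

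Of 23 genes of yolk sac and liver secretion, 7 were called higher and 2 lower, with 6 higher and 1 lower without ES replicate 2, 7 higher and 0 lower without ES replicate 3, and 7 higher and 1 lower without ST5 replicate 2. Rbp4, the plasma carrier of retinol, read 9.67, 9.62 and 9.77 in ST5 cells, against 8.37, 6.65 and 6.80 in ES cells, a difference of 2.42 ± 0.40 (limma adjusted p = 0.00114). Apoa1, the main protein of high density lipoprotein, read 8.63, 8.79 and 8.95 in ST5 cells, against 7.68, 6.32 and 6.30 in ES cells (limma adjusted p = 0.00128). Both were higher on every ST5 array than on every ES array, and both calls held with any day 5 array of ST5 or ES left out. Lrp2, the endocytic receptor megalin, averaged 5.54 ± 0.11 in ST5 cells and 7.56 ± 1.02 in ES cells (SD, n = 3 each), and its fall of 2.02 (limma adjusted p = 0.0119) was lost without ES replicate 2 (0.0661) or 3 (0.0625).

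The genes with the largest rises outside these lists were Nr1h5, Tnc, Sstr2, Exph5, Zfp711, Nrp1, Airn, Akr1c19 and Slc13a4. Tnc, the matrix glycoprotein tenascin C, read 8.34, 8.20 and 8.23 in ST5 cells, against 5.51, 4.75 and 4.97 in ES cells, a difference of 3.18 ± 0.36 (limma adjusted p = 0.000102). Sstr2, a somatostatin receptor, rose by 2.70 (limma adjusted p = 0.00307), and the sulfate transporter gene Slc13a4 rose by 2.23 (limma adjusted p = 0.000571). Exph5, a Rab27 effector, and the X-linked zinc finger gene Zfp711 rose by 2.50 and 2.47. Akr1c19, an aldo-keto reductase gene, read 8.50, 8.77 and 8.78 in ST5 cells, against 8.46, 5.18 and 5.52 in ES cells, and its call was lost without any one of 5 arrays, all except ES replicate 1 (limma adjusted p = 0.0271, and 0.0615 to 0.136 in those fits). Among the largest falls, Cdk6, a cyclin-dependent kinase of the start of the cell cycle, read 5.18, 5.06 and 5.05 in ST5 cells, against 6.62, 8.36 and 8.20 in ES cells (limma adjusted p = 0.00479). Pim2, a survival kinase, fell by 2.32 and Stmn2, a microtubule regulator of neurons, by 2.19. Igfbp3, which binds insulin-like growth factors, fell by 2.17 and lost its call without ES replicate 2 (0.0795) or 3 (0.0779).

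**Figure D3:**
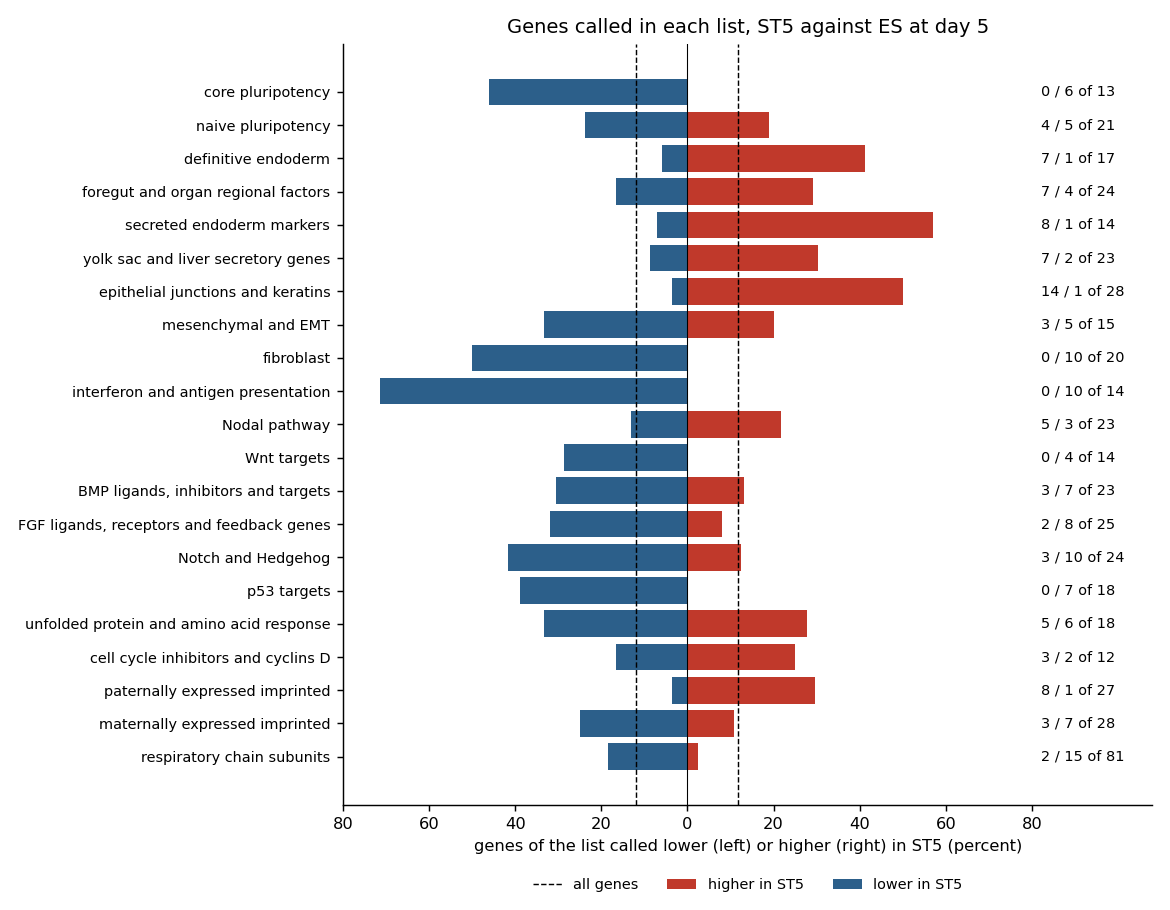
Share of the measured genes of each list that were called lower (left) or higher (right) in ST5 cells against ES cells at day 5, in percent, with the counts higher and lower of the genes measured at the right and dashed lines at the shares over all genes (11.7% higher and 11.9% lower). The list of epithelial junctions extends to the right and the lists of fibroblast and interferon genes to the left.

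The largest fall of all lay in the Dlk1-Dio3 domain on chromosome 12. In this imprinted domain the paternal chromosome expresses Dlk1, Rtl1 and Dio3, and the maternal chromosome expresses the long noncoding RNAs Meg3 and Rian, with small nucleolar RNAs and a long row of microRNA genes. Meg3 read 5.17, 5.33 and 5.11 in ST5 cells, against 10.18, 9.76 and 9.91 in ES cells, a difference of -4.75 ± 0.10 (limma adjusted p = 3.81e-14). Rian read 3.58, 3.90 and 3.94 in ST5 cells, against 7.18, 6.73 and 6.88 in ES cells, a difference of -3.12 ± 0.15 (limma adjusted p = 6.84e-09). The small nucleolar RNA probe sets DQ267102 and DQ267101 fell by 2.99 and 1.74 on the log2 scale. In these genes ES replicate 1 was the highest ES array and the farthest from ST5 cells, the reverse of its place in the pluripotency and endoderm genes. Dlk1, a membrane protein of the Notch ligand family, read 7.56, 8.07 and 7.91 in ST5 cells, against 6.88, 6.76 and 7.03 in ES cells, a rise of 0.95 (limma adjusted p = 0.00163). Dio3, a deiodinase that inactivates thyroid hormone, rose by 0.34 (limma adjusted p = 0.0361) with overlapping arrays, and its call was lost without ST5 replicate 1 (0.139) or 2 (0.128) or ES replicate 2 (0.0713) or 3 (0.171). Rtl1, a retrotransposon-derived gene of the placenta, was not called (difference -0.08, limma adjusted p = 0.632).

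The products of microRNA genes act by pairing the seed of the mature strand, its bases 2 to 8, with target messages. The mature strands of 5 of the genes with the largest falls are given here with the seed in capitals, since the differences below concern the transcripts that carry them. The sequences are those of RefSeq on GRCm38.p6, plus strand of chromosome 12, where the strands of Mir380 lie at chr12:109711806-109711827 and chr12:109711842-109711863 and those of Mir377 at chr12:109740515-109740536 and chr12:109740553-109740574.
miR-382-5p: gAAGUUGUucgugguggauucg
miR-382-3p: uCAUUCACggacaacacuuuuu
miR-300-5p: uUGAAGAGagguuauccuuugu
miR-300-3p: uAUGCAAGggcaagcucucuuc
miR-377-5p: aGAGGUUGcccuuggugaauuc
miR-377-3p: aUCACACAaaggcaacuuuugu
miR-329-5p: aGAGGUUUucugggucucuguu
miR-329-3p: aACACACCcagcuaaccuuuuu
miR-380-5p: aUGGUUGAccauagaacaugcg
miR-380-3p: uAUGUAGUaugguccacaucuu

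RefSeq gave 76 mature sequences for the 40 microRNA genes of the domain on the array, with 74 different seeds, of which 2 are shared by a pair of genes. One shared seed belongs to neighbouring genes whose 3' strands differ elsewhere.
miR-379-3p: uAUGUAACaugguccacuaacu
miR-411-3p: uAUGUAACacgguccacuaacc

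Mir382 read 2.66, 2.69 and 2.85 in ST5 cells, against 6.20, 4.82 and 4.83 in ES cells, a difference of -2.55 ± 0.25 (limma adjusted p = 3.47e-05). Mir300 read 2.97, 2.74 and 2.59 in ST5 cells, against 5.65, 4.58 and 5.19 in ES cells, and Mir377 read 2.24, 2.22 and 2.55 in ST5 cells, against 5.79, 4.07 and 3.92 in ES cells. Every ES array stood above every ST5 array for these 3 genes, and ES replicate 1 was the highest. Mir329, Mir380 and Mir487b, chosen after their values were seen, fell by 1.99, 1.97 and 1.82 on the log2 scale. Mir379 and Mir411, also chosen after their values were seen, fell by 0.78 and 1.04 (limma adjusted p = 0.00268 and 0.00484). The array was hybridised with labelled total RNA, and a probe set of a microRNA gene can read its precursor or host transcript, so these values are not levels of the mature strands.

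All 40 microRNA probe sets of the domain had a lower mean in ST5 cells at day 5. Of these, 34 were called lower, 13 of them by at least 2-fold, and none was called higher, against 11.7% of all probe sets called lower. The median difference was -0.72, and the arrays of the groups did not overlap for 39 of the 40, where 39.8% of all probe sets did not overlap. The ES array with the highest reading was replicate 1 for 31 of the 40, replicate 2 for 2 and replicate 3 for 7. Among the 256 microRNA probe sets elsewhere in the genome, 30 were called lower (11.7%) and 9 higher, with a median of -0.09.

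**Figure D4:**
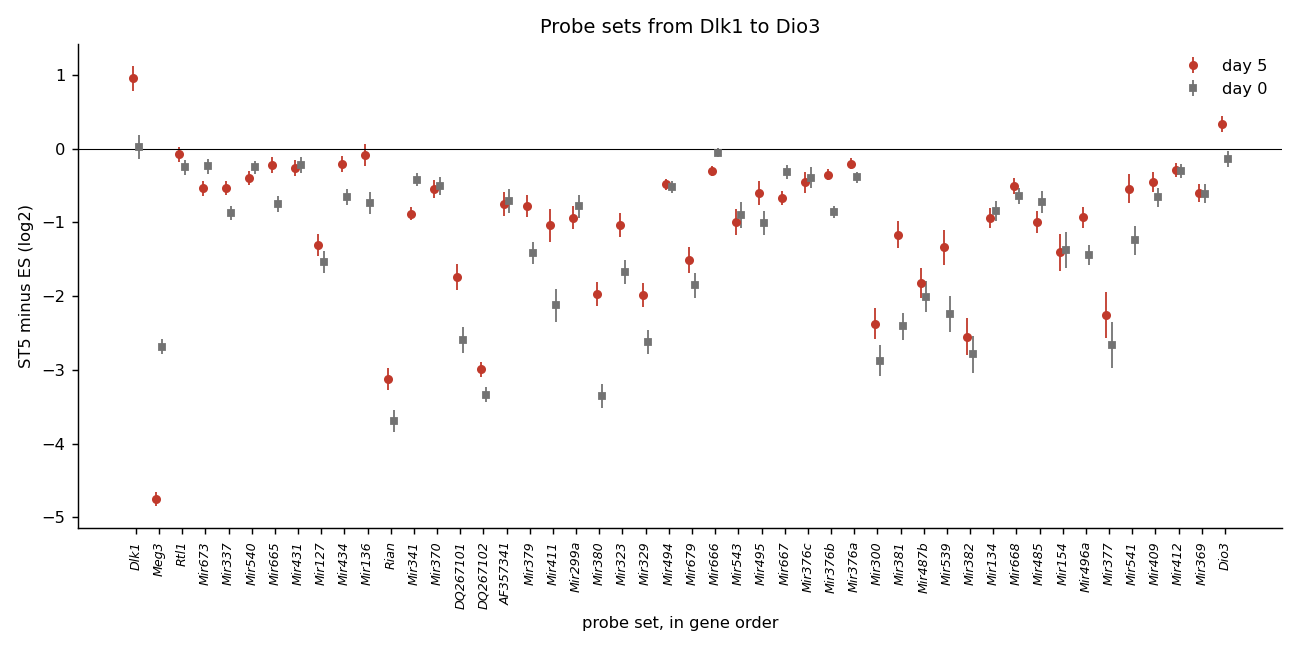
Difference between ST5 and ES cells (log2, with standard errors) for the 48 probe sets from Dlk1 to Dio3 in gene order, at day 5 and at day 0. Dlk1 and Dio3 at the ends lie above or near 0, and Meg3, Rian and the 40 microRNA probe sets lie below 0 at both days.

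The same domain was low in ST5 cells before differentiation. At day 0, 33 of the 40 microRNA probe sets were called lower, where 1.73% of all probe sets were, and all 40 had a lower mean, with a median difference of -0.85. Meg3 differed by -2.68 at day 0 and by -4.75 at day 5, and the change between the days passed the test (limma adjusted p = 2.7e-06 for the day 5 difference minus the day 0 difference). For Rian the differences were -3.69 at day 0 and -3.12 at day 5, and their change did not pass (limma adjusted p = 0.12). The change between the days passed for 4 of the 40 microRNA probe sets, where 5.39% of all probe sets did, and 3 of these 4 were less negative at day 5. In these 3 the ST5 arrays read low at both days, 2.15 to 2.71 at day 0 and 2.21 to 2.63 at day 5. Every ES array at day 5 was below every ES array at day 0 in them.

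Of the other imprinted genes, several differed at day 5. Counting the domain, 8 of 27 paternally expressed genes were called higher and 1 lower, and 3 of 28 maternally expressed genes were called higher and 7 lower. The paternal count was 10 higher and 3 lower without ES replicate 1, and 5 to 6 higher and 0 lower without any other of the 6 arrays. The maternal count was 7 higher and 6 lower without ES replicate 1, 1 higher and 4 lower without ES replicate 2, 1 higher and 3 lower without ES replicate 3, and 2 higher and 3 to 7 lower without 1 ST5 array. Airn, the paternally expressed antisense RNA at the Igf2r gene, read 9.48, 9.21 and 9.22 in ST5 cells, against 8.03, 6.29 and 6.56 in ES cells, a difference of 2.34 ± 0.47 (limma adjusted p = 0.00354). Igf2r, the maternally expressed receptor that clears insulin-like growth factor 2, read 9.95, 10.06 and 10.12 in ST5 cells, against 9.55, 9.13 and 9.16 in ES cells (limma adjusted p = 0.00359). Both members of this locus were thus higher on every ST5 array. Plagl1, a zinc finger growth regulator, rose by 0.77 (limma adjusted p = 0.000149) and Rasgrf1, a Ras exchange factor, by 0.78 (limma adjusted p = 0.00923). Inpp5f rose by 0.58 (limma adjusted p = 0.00514). Cobl, an actin nucleator, fell by 0.45 (limma adjusted p = 0.00523). Igf2 itself read 11.32, 11.32 and 11.38 in ST5 cells and 10.98, 10.94 and 11.01 in ES cells, without overlap. It was not called with all arrays (limma adjusted p = 0.122). Among the fits with 1 array left out, it was called only without ST8 replicate 2 (limma adjusted p = 0.0432). Its SD was 0.03 in ST5 cells, 0.03 in ES cells and 0.39 in ST8 cells, whose spread enters the shared estimate.

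Further imprinted calls were lost when single arrays were left out. Zdbf2 fell by 0.45 and lost its call without any one of 5 arrays, all except ES replicate 1 (limma adjusted p = 0.0397, and 0.0732 to 0.122 in those fits). Before differentiation, at day 0, Zdbf2 differed by -1.49 ± 0.15 (SE) between ST5 and ES cells. Atp10a fell by 1.11 and lost its call without ST5 replicate 1 (0.0749) or ES replicate 2 (0.0971) or 3 (0.105). Magel2 rose by 0.41 and lost its call without ST5 replicate 1 or 3 (0.0522 each) or ES replicate 2 (0.0628). Slc22a18 fell by 0.32 and lost its call without ST5 replicate 1 (0.144) or ES replicate 1 (0.0763) or 3 (0.098). Zim1, Klf14, Ppp1r9a, Phlda2 and Mcts2 had differences of -0.38, -0.29, 0.32, 0.22 and 0.24, and each call was lost without at least 1 ST5 array and without ES replicate 2 or 3, at adjusted p between 0.0519 and 0.157.

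Most day 5 differences were not called at day 0. Between undifferentiated ST5 and ES cells, 663 probe sets were called (3.04%), 285 higher (1.31%) and 378 lower (1.73%). At both days 267 were called, 217 of them in the same direction, which is 32.7% of the day 0 calls and 4.23% of the day 5 calls, and 50 in opposite directions. The test of the day 5 difference against the day 0 difference passed for 1175 probe sets (5.39%), 703 with a more positive (3.23%) and 472 with a more negative (2.17%) difference at day 5, and 914 of these were also called at day 5. Of the 435 probe sets with a 2-fold difference at day 5, 135 passed the test of the change and 27 were called in the same direction at day 0, 17 of them in the Dlk1-Dio3 domain.

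Of genes outside the domain, Nr1h5 had the largest difference carried from day 0. Nr1h5 encodes the nuclear receptor FXR beta, and it read 6.26, 6.62 and 6.64 in ST5 cells, against 3.13, 2.93 and 3.35 in ES cells at day 5. Its difference was 3.37 ± 0.39 at day 5 (limma adjusted p = 0.000126) and 6.32 at day 0, and the change passed the test (limma adjusted p = 0.009). AI506816, Trim12a, Atp7b and Eya1, chosen after their values were seen, also differed in 1 direction at both days. AI506816, a gene without a described function, read 3.23, 2.78 and 3.10 in ST5 cells, against 6.25, 5.79 and 6.06 in ES cells at day 5, with differences of -3.0 at day 5 and -2.75 at day 0. Trim12a, a member of the tripartite motif family, differed by -2.10 and -2.02. Atp7b, the copper transporter of the liver, differed by 1.22 and 1.74, and Eya1, a phosphatase and cofactor of organ formation, by 0.92 and 1.27. The change between the days did not pass for any of these 4 genes (limma adjusted p = 0.57, 0.93, 0.25 and 0.11). The Y-linked genes Uty and Eif2s3y were higher by 0.71 and 0.45 at day 5 and by 0.62 and 0.46 at day 0. Kdm5d was higher by 0.32 and lost its call without ST5 replicate 1 or 3 or any ES array (limma adjusted p = 0.0294, and 0.0558 to 0.111 in those fits). Xist, the RNA that coats the inactive X chromosome, read 3.14, 3.77 and 3.65 in ST5 cells and 3.50, 3.33 and 3.81 in ES cells.

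Signalling genes were called in several pathways, where 23.5% of all genes were called in either direction. The share called was 28.6% for Wnt targets and for Wnt ligands and 34.8% for the Nodal pathway, not far from that of all genes. It was 40.0% for FGF, 43.5% for BMP, 54.2% for Notch and Hedgehog and 66.7% for TGF-beta genes. In the Nodal pathway, which drives endoderm formation, 5 of 23 genes were called higher and 3 lower, with 2 higher and 2 lower without ES replicate 2 or 3 and 2 to 3 higher and 2 to 3 lower without 1 ST5 array. The Nodal count was 6 higher and 5 lower without ES replicate 1. Smad2, which carries the Nodal signal to the nucleus, read 9.33, 9.25 and 9.27 in ST5 cells, against 8.86, 8.38 and 8.26 in ES cells (difference 0.79, limma adjusted p = 0.00178), and its relative Smad3 rose by 0.56 (limma adjusted p = 0.008). Cfc1, the Nodal co-receptor Cryptic, read 7.78, 7.78 and 7.71 in ST5 cells, against 8.85, 8.65 and 8.60 in ES cells (difference -0.95, limma adjusted p = 0.00114). The co-receptors Tdgf1 and Cfc1 were thus lower and both Smads higher on every ST5 array.

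Of 14 Wnt targets, 4 were called lower and none higher, and 1 was called lower without ES replicate 2, ES replicate 3 or ST5 replicate 1, and 2 higher and 5 lower without ES replicate 1. Lgr5, the R-spondin receptor of stem cells, read 6.91, 6.85 and 6.85 in ST5 cells, against 7.51, 8.31 and 7.87 in ES cells (difference -1.03, limma adjusted p = 0.003). Axin2, the feedback inhibitor of the pathway, fell by 0.59 and lost its call without ST5 replicate 1 (0.0544) or ES replicate 2 (0.0676) or 3 (0.0803). At day 0 Axin2 had been higher in ST5 cells by 0.84, and the change between the days passed (limma adjusted p = 0.0031). Among 21 Wnt ligands and R-spondins, 2 were called higher and 4 lower. That count was 2 higher and 7 lower without ES replicate 1, 1 higher and 1 lower without ES replicate 2 or 3, and 2 higher and 1 to 2 lower without 1 ST5 array. Wnt5a, a ligand of the noncanonical branch, read 9.12, 9.02 and 9.17 in ST5 cells, against 8.27, 6.64 and 6.73 in ES cells, and its rise of 1.89 (limma adjusted p = 0.0103) was lost without ES replicate 2 (0.058) or 3 (0.0576). The R-spondin gene Rspo2 rose by 0.46 (limma adjusted p = 0.00488). Rspo3 fell by 1.54 and lost its call without any one of 5 arrays, all except ES replicate 1 (limma adjusted p = 0.0241, and 0.0511 to 0.123 in those fits).

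Of 23 BMP genes, 3 were called higher and 7 lower. Bmp4, the ligand that favours mesoderm and ventral fates, read 5.91, 5.73 and 6.04 in ST5 cells, against 6.16, 6.94 and 6.95 in ES cells. Its fall of 0.79 (limma adjusted p = 0.022) was lost without ST5 replicate 1 (0.0583) or 2 (0.0756) or ES replicate 2 (0.101) or 3 (0.108), and at day 0 Bmp4 had been higher in ST5 cells by 1.60. The BMP antagonists Nog and Chrd fell by 1.07 and 0.85, and Bmper, a secreted BMP modulator, rose by 1.17. These 3 calls were lost without ES replicate 2 or 3, at adjusted p between 0.0691 and 0.0876, and Chrd also without ST5 replicate 1 (0.0613) and Bmper without ST5 replicate 2 (0.0505). Without ES replicate 2 or 3, the BMP list had 0 called higher and 2 or 1 lower, without ES replicate 1 it had 7 higher and 8 lower, and without ST5 replicate 1 it had 2 higher and 2 lower.

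Of 25 FGF genes, 2 were called higher and 8 lower. Dusp4, a phosphatase that FGF signalling induces and that limits ERK, read 8.29, 8.36 and 8.36 in ST5 cells, against 8.93, 9.51 and 9.58 in ES cells (difference -1.0, limma adjusted p = 0.00157). Fgf4, the FGF of the inner cell mass, fell by 0.61 (limma adjusted p = 0.00181) and was lower at day 0 as well, by 0.54. Etv1, an ETS factor downstream of FGF, fell by 2.07 and lost its call without ES replicate 2 (0.0597) or 3 (0.0601), and its second probe set fell by 1.42 (limma adjusted p = 0.049). Without ES replicate 2 or 3, the counts of the list were 0 higher and 3 lower and 1 higher and 3 lower, and without 1 ST5 array they were 0 to 1 higher and 3 to 6 lower. In the TGF-beta list of 12 genes, 4 were called higher and 4 lower, but without ES replicate 2, ES replicate 3 or ST5 replicate 1 the count was 0 higher and 3 lower, and without ST5 replicate 2 or 3 it was 1 to 2 higher and 4 lower. The ligand genes Tgfb2 and Tgfb3 fell: Tgfb2 read 6.77, 6.56 and 6.51 in ST5 cells, against 8.17, 8.03 and 7.96 in ES cells (difference -1.44, limma adjusted p = 0.000216), and Tgfb3 differed by -0.71 (limma adjusted p = 0.0031). Tgfb2 was one of the genes in which ES replicate 1 was the highest of the ES arrays.

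Of 24 Notch and Hedgehog genes, 3 were called higher and 10 lower. Without ES replicate 2 or 3 the count was 2 higher and 1 lower, and without 1 ST5 array it was 2 to 3 higher and 2 to 4 lower. It was 5 higher and 11 lower without ES replicate 1. Hhip, which binds and limits Hedgehog ligands, read 6.23, 6.05 and 5.95 in ST5 cells, against 5.46, 4.15 and 4.22 in ES cells (difference 1.47, limma adjusted p = 0.00364). Hey2, a transcriptional repressor induced by Notch, rose by 1.47 (limma adjusted p = 0.00217). Of 43 guidance genes, 7 were called higher and 9 lower, and without ES replicate 2 or 3 the counts were 2 higher and 0 lower and 1 higher and 1 lower. The guidance count was 10 higher and 14 lower without ES replicate 1, 3 higher and 5 lower without ST5 replicate 1 and 6 higher and 4 lower without ST5 replicate 3. Nrp2, a semaphorin and VEGF co-receptor, read 7.97, 7.67 and 7.72 in ST5 cells, against 6.63, 5.78 and 5.77 in ES cells (difference 1.73, limma adjusted p = 0.00157). Nrp1 rose by 2.33 and Robo1, a Slit receptor, by 1.25, while the semaphorin genes Sema6a and Sema3e fell by 2.65 and 2.16 and the Slit ligand gene Slit2 fell by 0.99. Each of these 5 calls was lost without ES replicate 2 or 3, at adjusted p between 0.0545 and 0.0986, and Robo1 also without any one ST5 array (0.0505 to 0.0515).

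Of 28 genes of epithelial junctions and keratins, 14 were called higher and 1 lower, with a median difference of 0.36. Grhl2, a grainyhead factor that maintains epithelia, read 7.83, 7.67 and 7.61 in ST5 cells, against 7.13, 6.14 and 6.32 in ES cells (difference 1.17, limma adjusted p = 0.00158). Esrp2, an epithelial splicing regulator, rose by 1.07 (limma adjusted p = 0.00386). The desmosomal cadherin gene Dsc2 rose by 1.08 and lost its call without ST5 replicate 1 (0.0521) or 2 (0.0661) or ES replicate 2 (0.0991) or 3 (0.109). Krt19, a keratin of simple epithelia, was the gene of the list that fell, at 9.25, 8.97 and 8.80 in ST5 cells and 10.23, 10.29 and 10.25 in ES cells (difference -1.25, limma adjusted p = 0.00174). At day 0 the list had a median difference of -0.33, and for 12 of the 28 genes the day 5 difference was higher than that at day 0 by the test of the change, where 3.25% of all genes were. Without ES replicate 2 or 3, 3 or 2 genes were called higher and 1 lower, and without 1 ST5 array 6 to 7 were called higher and 1 lower.

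Among 15 mesenchymal genes, 3 were called higher and 5 lower. The count was 3 higher and 9 lower without ES replicate 1, 1 higher and 3 lower without ES replicate 2, 2 higher and 3 lower without ES replicate 3, and 1 to 3 higher and 3 to 4 lower without 1 ST5 array. Vim, the intermediate filament vimentin, read 8.71, 8.81 and 8.44 in ST5 cells, against 9.60, 10.91 and 10.80 in ES cells (difference -1.79, limma adjusted p = 0.00827). Cdh2, N-cadherin, read 7.08, 7.48 and 7.42 in ST5 cells, against 8.65, 9.16 and 8.78 in ES cells (difference -1.53, limma adjusted p = 0.00181), and Prrx1, a homeobox factor of mesenchyme, fell by 1.18 (limma adjusted p = 0.0044). Of 20 fibroblast genes, 10 were called lower and none higher, with a median of -0.26. Tagln, an actin-binding protein of smooth muscle and fibroblasts, averaged 5.94 ± 0.26 in ST5 cells and 7.80 ± 1.14 in ES cells (SD, n = 3 each), with ES replicate 1 nearest to ST5 cells (difference -1.86 in limma, limma adjusted p = 0.00522). Without ES replicate 2 or 3, the fibroblast count was 3 or 4 lower and none higher, and without 1 ST5 array it was 5 to 7 lower and none higher. These falls stood beside the fibroblast marker levels given above, which were highest on ES replicates 2 and 3, and the part of feeder cells in them was not tested.

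Of 14 genes of interferon response and antigen presentation, 10 were called lower and none higher, with a median difference of -0.68. B2m, the light chain of MHC class I, read 7.44, 7.42 and 7.45 in ST5 cells, against 8.27, 9.17 and 9.22 in ES cells (difference -1.45, limma adjusted p = 0.00205). Irf1, a factor that interferon gamma induces, read 6.55, 6.41 and 6.13 in ST5 cells, against 7.08, 8.54 and 8.41 in ES cells (difference -1.65, limma adjusted p = 0.00381) on its brighter probe set, and its second probe set was not called (difference -0.11). Psmb8, a subunit of the immunoproteasome, and Irgm1, an interferon-induced GTPase outside the list, fell by 1.16 and 2.24, and Psmb8 lost its call without ES replicate 2 (0.0666) or 3 (0.0647). ES replicate 1 lay between the ST5 arrays and the other ES arrays for all 4 genes. The count of the list was 5 lower without ES replicate 2 and 6 lower without ES replicate 3, with none higher, and its median at day 0 was -0.05.

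Of 18 p53 targets, 7 were called lower and none higher, and 3 were called lower and none higher without ES replicate 2 or 3. The count was 1 higher and 10 lower without ES replicate 1. Bbc3, the apoptosis inducer Puma, read 6.32, 6.23 and 6.61 in ST5 cells, against 6.83, 7.08 and 7.26 in ES cells (difference -0.67, limma adjusted p = 0.00415). Phlda3, an inhibitor of Akt, and the death receptor gene Tnfrsf10b fell by 0.98 and 0.78, and both calls were lost without ES replicate 2 or 3 (limma adjusted p between 0.0689 and 0.0747). Among 18 genes of the unfolded protein and amino acid responses, 5 were called higher and 6 lower. Atf4, the factor of the amino acid response, read 8.14, 8.16 and 8.17 in ST5 cells, against 8.68, 8.76 and 8.75 in ES cells (difference -0.57, limma adjusted p = 0.00014). Its targets Chac1 and Trib3 fell by 1.07 and 0.71 (limma adjusted p = 0.00106 and 0.00338), while the chaperone genes Dnajb9, Dnajb11 and Creld2 of the endoplasmic reticulum rose by 0.73, 0.62 and 0.39. The 3 ES arrays lay close together for Atf4, and ES replicate 1 did not stand apart in it.

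The cyclin-dependent kinase inhibitors of the Ink4 locus were higher. Cdkn2b read 8.57, 8.57 and 8.58 in ST5 cells, against 7.67, 6.31 and 6.68 in ES cells (difference 1.68, limma adjusted p = 0.00205), and Cdkn2a read 7.59, 7.29 and 7.21 in ST5 cells, against 6.50, 5.53 and 5.46 in ES cells (difference 1.53, limma adjusted p = 0.00163). Both also passed the test of the change from day 0 (limma adjusted p = 0.029 each). Cdkn1b, an inhibitor of another family, fell by 0.45 and Ccnd1, cyclin D1, by 1.29, and both calls were lost without ES replicate 2 or 3 (limma adjusted p between 0.0558 and 0.0647) and 1 ST5 array. The second probe set of Cdkn1b fell by 0.79 (limma adjusted p = 0.002). Immediate early genes, which sorting and handling can also move, were mixed, with 4 of 26 called higher and 8 lower (3 and 3 without ES replicate 2 or 3, and 3 and 4 without ST5 replicate 3). That count was 7 higher and 11 lower without ES replicate 1, and 4 higher and 5 lower without ST5 replicate 2. Fosb rose by 1.62 and Jun by 0.84, whereas the small heat shock protein gene Hspb1 fell by 0.97 (limma adjusted p = 0.0012, 0.00504 and 0.000764). Of 81 subunits of the respiratory chain, 2 were called higher and 15 lower (1 and 25 after quantile normalization, 0 and 9 without ES replicate 2, 0 and 10 without ES replicate 3, and 0 and 9 to 13 without 1 ST5 array). The respiratory chain count was 4 higher and 12 lower without ES replicate 1. With all arrays the share of the list called in either direction was 21.0%, against 23.5% of all genes. Ndufs5, a subunit of complex I, read 6.30, 6.37 and 6.07 in ST5 cells, against 7.16, 7.14 and 7.13 in ES cells, with differences of -0.90 at day 5 and -0.71 at day 0. Of 30 Polycomb and trithorax genes, 9 were called higher and 3 lower (6 and 1 without ES replicate 2, 4 and 0 without ES replicate 3, and 6 to 7 and 1 to 2 without 1 ST5 array), among them Bmi1 and Pcgf5 of the first Polycomb complex, which rose by 0.82 and 1.0, and Phc1, which fell by 0.95 and lost its call without ST5 replicate 1 (0.0551) or ES replicate 2 (0.076) or 3 (0.0806). The Polycomb and trithorax count was 11 higher and 6 lower without ES replicate 1.

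The other iPS clone gave a test of whether the values of ST5 cells differ from those of a second clone at day 5. Between ST5 and ST8 cells, 3173 probe sets were called (14.6%), 1380 higher (6.33%) and 1793 lower (8.23%) in ST5 cells. That count rested on the shared estimate of spread: a fit of the 6 arrays alone called 3, and a fit of the 9 day 5 arrays called 223. It was 6473 without ST8 replicate 2, 811 without ST8 replicate 1 and 710 without ST8 replicate 3, so the ST8 group was also uneven. ST8 and ES cells share no array, but both comparisons use the ST5 arrays, and their values are given side by side. None of the 40 microRNA probe sets of the Dlk1-Dio3 domain was called between the clones by limma (lowest adjusted p 0.0991, and 1 with an unadjusted p under 0.05), and Meg3 differed by 0.08 between ST5 and ST8 cells, against -4.75 between ST5 and ES cells. Nr1h5 differed by -1.60 between ST5 and ST8 cells (limma adjusted p = 0.0156) and by 3.37 between ST5 and ES cells. Slc7a3 differed by -2.96 from ST8 cells and by -2.93 from ES cells, Nanog by -2.76 and -2.78, and Klf4 by 1.24 and 1.67. Ttr differed by 2.22 from ST8 cells and by 2.79 from ES cells, and Tgfb2 by 0.63 from ST8 cells and by -1.44 from ES cells (limma adjusted p = 0.0306 for the clones). On the ST8 arrays Nanog read 9.93, 6.85 and 9.84, so ST8 replicate 2 lay near the ST5 arrays in it. The same held for other genes named above: Cdk6 read 8.15, 5.37 and 8.29 on the ST8 arrays, Hhex 7.93, 9.75 and 7.79, and Akr1c19 6.39, 8.81 and 6.07. It did not hold for Atf4, which read 8.86, 8.63 and 8.85 on the ST8 arrays.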

How the data were processed

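Expression was measured in 30 samples on Affymetrix mouse arrays from total RNA. The authors deposited 1 table of log2 values per probe set, made with RMA per the submitters' processing notes; its version and the arrays normalized together are not given in the sources used here. Probe sets were named through the platform annotation and RefSeq: 23410 of 35556 were listed, 21789 with 1 gene and 1621 with several, and 99.9% of the first kind matched RefSeq. RMA subtracts background and equalises the distributions of probe values among arrays normalized together, which hides a change shared by most genes. The deposited values were not fully equal in distribution. Array medians were 5.5 to 5.57 on the 18 arrays without amplification and 5.69 to 5.74 on the 12 amplified arrays.

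Groups came from the sample titles. A model of group means (6 groups) was fitted to the values of all 18 arrays without amplification with limma 3.58.1 in R 4.3.3 (two-sided moderated test, residual degrees of freedom 12), with Benjamini-Hochberg adjustment over all 21789 probe sets and a threshold of 0.05. Contrasts were ST5 minus ES at day 5, the same at day 0, their difference, and ST5 minus ST8 at day 5. The steps were tested on simulated data. Gene lists (54) count each gene once, through its probe set with the highest mean. The members and lists were chosen with earlier results of these data known. Named genes were the 12 largest rises and falls without overlap, the 3 largest rises and falls of each list, imprinted genes called, and a fixed set of markers; the text describes a part of them, and says where another gene is named. T, Mirg, H19 and Ddx3y were not analysed here.

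The replicate numbers are shared between groups. Deviations of same-numbered ST5 and ES arrays at day 5 correlated at 0.16, 0.08 and 0.12, so the numbers were not taken as pairs. Alternatives were fits of fewer or more arrays, other scalings, a filter on dim probe sets, 1 probe set per gene, an intensity trend, the replicate block and each array left out in turn.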

Additional observations from a re-analysis of the deposited data

Results flagged for a closer look

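For 53 of the named genes the ST5 minus ES difference at day 5 differed from that at day 0 by limma's interaction test. Of all probe sets, 5.39% passed it. Most named genes were chosen for a large day 5 difference, which enters this test, so their count cannot be set against that share. The values here are the day 5 difference minus the day 0 difference on the log2 scale, so a negative value means that ST5 cells stood lower relative to ES cells at day 5 than at day 0.

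Among pluripotency and epiblast genes, the change was -3.45 for Tdgf1, -2.72 for Slc7a3 and 1.57 for Klf4, and among the largest differences it was -2.96 for Nr1h5, -2.41 for Stmn2, 2.23 for Zfp711, 2.25 for Slc13a4 and 3.31 for Tnc. Nr1h5 is the one of these that was called higher in ST5 cells at both days, by 6.32 at day 0 and 3.37 at day 5.

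The named endoderm and secreted genes that passed had changes of 2.92 for Ttr, 2.68 for Rfx6, 2.55 for Rbp4 and 1.91 for Apoa1. Pax9 had 1.36 and Epcam 0.65, while Shh had -1.77 and Prox1, a factor of liver and lymphatic vessels, -0.9. By list, 1 of 17 definitive endoderm genes passed upward and 1 downward, and 1 of 14 secreted endoderm markers upward and 0 downward. For the 24 regional factors the counts were 3 upward and 1 downward, and for the 23 yolk sac and liver genes 5 and 2. Over all genes 3.25% passed upward and 2.24% downward. The epithelial regulators had 1.71 for Grhl2 and 1.2 for Esrp2, and Cdh2 had -2.36.

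Signalling genes changed in both directions. Negative changes were -2.8 for Etv1, -2.6 for Rspo3, -2.38 for Bmp4, -1.68 for Lgr5, -1.61 for Chrd, -1.49 for Slit2, -1.43 for Axin2, -1.34 for Cfc1, -1.31 for Tgfb2 and -1.27 for Dusp4. Positive changes were 1.67 for Nrp2, 1.66 for Hhip, 1.13 for Id2, 0.81 for Smad2, 0.73 for Rspo2 and 0.72 for Smad3. Bmp4 and Axin2 were called higher in ST5 cells at day 0 and lower at day 5.

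Imprinted genes gave -2.07 for Meg3, -0.67 for Cobl, 0.53 for Plagl1, 0.65 for Phlda2, 0.93 for Dlk1, 1.04 for Zdbf2, 1.38 for Mir380 and 2.39 for Airn. Meg3 was lower in ST5 cells at both days and farther below ES cells at day 5. Mir380 was lower at both days, by less at day 5. On the ST5 arrays Mir380 read a low 2.42, 2.71 and 2.42 at day 0 and 2.41, 2.46 and 2.51 at day 5. On the ES arrays it read 6.01, 5.55 and 6.03 at day 0 and 4.86, 4.17 and 4.24 at day 5. The smaller difference thus came with a fall in ES cells. Stress, immune and cell cycle genes gave -1.56 for Psmb8, -1.19 for Chac1, -1.1 for Trib3, -0.6 for Atf4, 0.74 for Dnajb9, 1.09 for Jun, 1.14 for Pcgf5, 1.55 for Cdkn2a, 1.77 for Cdkn2b and 2.0 for Fosb. Causes were not tested.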

How the results depend on the processing

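The day 5 count of 5136 probe sets became 3408 in a fit of the 6 arrays alone and 1631 in a fit of the 9 day 5 arrays, and ranged from 2082 to 7138 with 1 array left out. The count for the change between days (1175) became 1945 with only its 4 groups and ranged from 370 to 3534 with 1 array left out. The count between ST5 and ST8 (3173) became 3 with only these groups and 223 with the 9 day 5 arrays, and ranged from 710 to 6473 with 1 array left out. The day 0 count (663) ranged from 311 to 463 with 1 of its 6 day 0 arrays left out, and was 796 without ES day 5 replicate 1 and 1031 without ST8 day 5 replicate 2. With the replicate block the counts were 5038, 983, 2833 and 565, and 3 of 3 ST5 day 5 arrays correlated best with the ES array of their own number, a hint from the data and not from the design. Other scalings, the dim filter, 1 probe set per gene, the intensity trend and all 30 arrays kept each of the 4 counts within 1.5 times. The dim filter, however, left 10895 probe sets tested instead of 21789. Its counts of 4339, 1455, 3235 and 676, for day 5, the change, ST8 and day 0, were thus larger shares. Of the 151 genes examined one by one, 67 lost their day 5 call in the fit of 9 arrays, 47 without ES replicate 2 and 47 without ES replicate 3. The uncalled genes Myc and Xist changed sign: Myc was -0.163 without ES replicate 1 and at most 0.27 without another array, and Xist was 0.169 without ST5 replicate 1, 0.108 without ES replicate 3 and -0.15 without ST5 replicate 2. The list counts with an ES array left out were chosen after seeing the data. The causes were not tested.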

Other observations

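At day 5, 23.5% of all genes were called in either direction, 11.7% higher and 11.9% lower. The share called was 9.1% for Cdx and Hox, 28.6% for glycolysis, 32.4% for cell cycle and 12.3% for ribosomal protein genes. Of 33 Cdx and Hox genes, 0 were called higher and 3 lower, with a median of -0.14, and without ES replicate 2, ES replicate 3 or ST5 replicate 1 they had 1, 1 or 0 lower, and without ES replicate 1 they had 5 lower. Glycolysis genes had 0 of 21 called higher and 6 lower, with 0 higher and 1 lower without ES replicate 2 or 3 and 0 higher and 3 or 2 lower without ST5 replicate 2 or 3. The glycolysis count was 3 higher and 6 lower without ES replicate 1. The 34 genes of the cell cycle and DNA replication had 5 higher and 6 lower, with 5 higher and 1 lower without ES replicate 2 and 5 higher and 11 lower without ES replicate 1. Ribosomal protein genes had 1 of 57 called higher and 6 lower, with 1 higher and 3 lower without ES replicate 2, ES replicate 3 or ST5 replicate 3. The ribosomal count was 3 higher and 7 lower without ES replicate 1. In the Dlk1-Dio3 domain, Mir487b (chosen after its values were seen) at 3.75, 4.18 and 4.02 in ST5 cells and 6.45, 5.44 and 5.53 in ES cells is 1 of the 31 microRNA probe sets on which ES replicate 1 was the highest ES array.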
